A study of Mus musculus with 2 samples.

Results

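Endothelial cells line blood vessels and lymphatic vessels, and 35 genes that mark them were followed here in mouse ureters at postnatal day 4 (P4). The genes were chosen by name, as pan-endothelial, tip cell and lymphatic markers, with earlier results of these data known. All 35 had at least 1 probe on the arrays, 49 probes in all. Of the 35, 34 passed the filter on dim probes and stand among the 21150 genes tested. The lymphatic receptor gene Flt4 did not pass.

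Rbpj-cKO ureters came from Tbx18(cre/+);Rbpj(fx/fx) pups, which carry 1 Tbx18 allele with cre and 2 floxed Rbpj alleles. Control ureters came from Tbx18(+/+) pups without cre whose Rbpj genotype is given as fx/n.d., that is, 1 floxed allele and 1 that was not determined. All pups were of the NMRI strain. Each of 2 arrays held an Rbpj-cKO RNA and a control RNA in 2 colours. Array 1 held a pair labelled female with the Rbpj-cKO RNA in red, and array 2 a pair labelled male with the dyes exchanged, so sex, dye and pair cannot be told apart. Rbpj is the DNA-binding partner of Notch receptors. Tbx18 is active in the mesenchyme around the ureteric epithelium, and the labels do not describe a deletion in endothelial cells. The labels do not say how many pups gave each RNA, so the pair is the unit of the p-values. These rest on the spread between the 2 pairs and on a spread borrowed from all genes tested.

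The vessel wall is built through a small set of signals. VEGF ligands act on the receptors Kdr and Flt1 in blood vessels and on Flt4 in lymphatic vessels, and angiopoietins act on Tek. Tip cells lead a growing sprout and make Angpt2, Apln and Esm1. Prox1 is the transcription factor that sets lymphatic identity, and mature lymphatic vessels carry Lyve1, Mmrn1 and Pdpn.

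The RNAs carried ureter markers, since 8 of 8 urothelium genes and 8 of 8 smooth muscle genes passed the filter. Between 71.8% and 74.0% of gene spots were well above background in each of the 4 RNAs, no spot was saturated, and the number of arrays limits the precision. Rbpj had a mean log2 ratio of -1.01 ± 0.13 and was lower on both arrays (adjusted p = 0.0875 in limma). The probes were not placed relative to the deleted part. On array 1, labelled female in both channels, the library labelled Rbpj-cKO exceeded the control by 4.23 for Ddx3y and 4.26 for Eif2s3y on the log2 scale, and both genes are Y-linked. Xist, which is active in female cells, stood at 12.96 in that library and 12.82 in its control, against 6.41 and 6.43 in the RNAs of array 2. The ratios below are therefore given for each array beside their mean, in parentheses with array 1 before array 2 where no array is named, and those of array 2 are free of that library. In whole-ureter RNA, fewer endothelial cells and less RNA per endothelial cell cannot be told apart.

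The lymphatic genes Mmrn1 and Lyve1 had ratios above 0 on both arrays, as did 31.8% of all genes. Pdpn, which other cell types share, did too. The lymphatic genes Prox1 and Flt4 were near background. Of 13 other lymphatic genes outside the set, 4 were lower and 5 higher on both arrays. Most blood endothelial genes had ratios below 0. The 27 genes called blood endothelial here are the pan-endothelial markers of the set, and not all are limited to blood vessels. Mmrn1 was 2.01-fold, Esm1 1.77-fold and Lyve1 1.43-fold higher in Rbpj-cKO ureters, and Apln was 1.26-fold higher in pair 1 and 1.79-fold in pair 2. Angpt2 was at 0.590 and Cldn5 at 0.690 of the control level. Prox1 passed the filter through the Rbpj-cKO RNAs alone and Erg through the control RNAs alone, so their direction adds nothing to a count, and the other 32 passed in both groups. None of the 34 measured genes passed limma's threshold, an adjusted p of 0.05 (0 genes), and over all genes 0.00473% did. At an unadjusted p under 0.05, limma gave 8 lower and 4 higher of the 32 endothelial genes that passed in both groups (Erg would make 9 lower), against 7.02% and 6.99% of all genes. With limma's trend and robust settings, Mmrn1 (adjusted p = 0.0317) and Esm1 (adjusted p = 0.0465) passed as higher and no endothelial gene passed as lower, where 0.217% of all genes passed as higher and 0.232% as lower. By size, Mmrn1 and Esm1 were at least 1.5-fold higher on both arrays, as were 0.402% of all genes, and Angpt2 was at least 1.5-fold lower on both arrays, as were 0.794%.

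**Figure D1:**
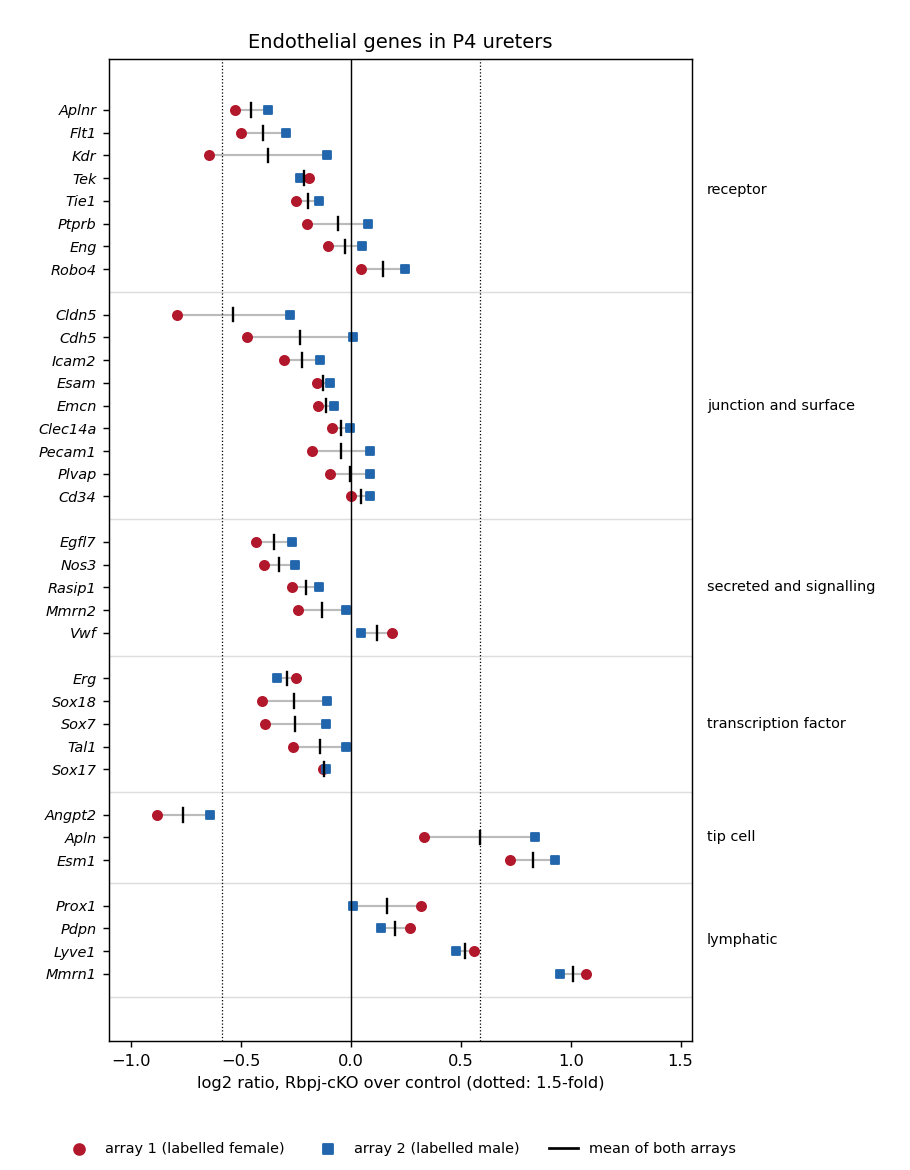
Log2 ratios of Rbpj-cKO over control for the 34 measured endothelial genes, grouped by role, with array 1 as red circles, array 2 as blue squares and the mean as a black bar (n = 2 arrays). Mmrn1, Lyve1 and Pdpn lie right of 0 on both arrays, Angpt2 lies left of the 1.5-fold line on both, and Prox1 and Erg passed the filter through 1 group each.

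The tip cell genes lay on both sides of 0. Angpt2 encodes angiopoietin-2, a ligand of Tek that loosens the vessel wall during remodelling. Its normalized log2 intensity was 10.39 and 10.49 in the Rbpj-cKO RNAs of pairs 1 and 2, against 11.27 and 11.13 in the control RNAs. Both Rbpj-cKO values lay below both control values, as for 20.8% of all genes. The log2 ratios were -0.88 (array 1) and -0.64 (array 2) and averaged -0.76 ± 0.17 (SD, n = 2 arrays, adjusted p = 0.129 in limma), the 265th lowest of the 21150 genes. The Angpt2 probe lies at chr8:18691458-18691517 in build mm9, as the array annotation in the files gives it.

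Esm1 encodes endocan, a secreted proteoglycan of tip cells. It stood at 11.42 and 11.75 in the Rbpj-cKO RNAs, against 10.69 and 10.82 in the control RNAs. The log2 ratios were 0.72 for array 1 and 0.93 for array 2 (mean 0.83 ± 0.14, adjusted p = 0.107 in limma), the 64th highest (probe at chr13:114008204-114008263, mm9). Apln encodes apelin, a peptide ligand that tip cells secrete. It stood at 12.66 and 12.94 in the Rbpj-cKO RNAs, against 12.32 and 12.10 in the control RNAs. For both genes the Rbpj-cKO values lay above both control values, as for 22.3% of all genes. The ratio of Apln was unequal in the pairs, with 0.33 in pair 1 and 0.84 in pair 2 (mean 0.59 ± 0.36, adjusted p = 0.245 in limma).

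Aplnr, the receptor of apelin, was on the other side. Its levels were 12.42 and 12.22 in the Rbpj-cKO RNAs, against 12.95 and 12.60 in the control RNAs. The groups did not overlap, and 20.8% of all genes were likewise lower without overlap. The log2 ratios were -0.53 and -0.38 and averaged -0.45 ± 0.11 (adjusted p = 0.181 in limma). Apela, which encodes a further peptide ligand of this receptor, is no member of the 35 genes and had 0.90 and 0.74, or 0.82 ± 0.12 (adjusted p = 0.103). Both ligands of Aplnr thus had ratios above 0 and the receptor a ratio below 0 on both arrays.

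**Figure D2:**
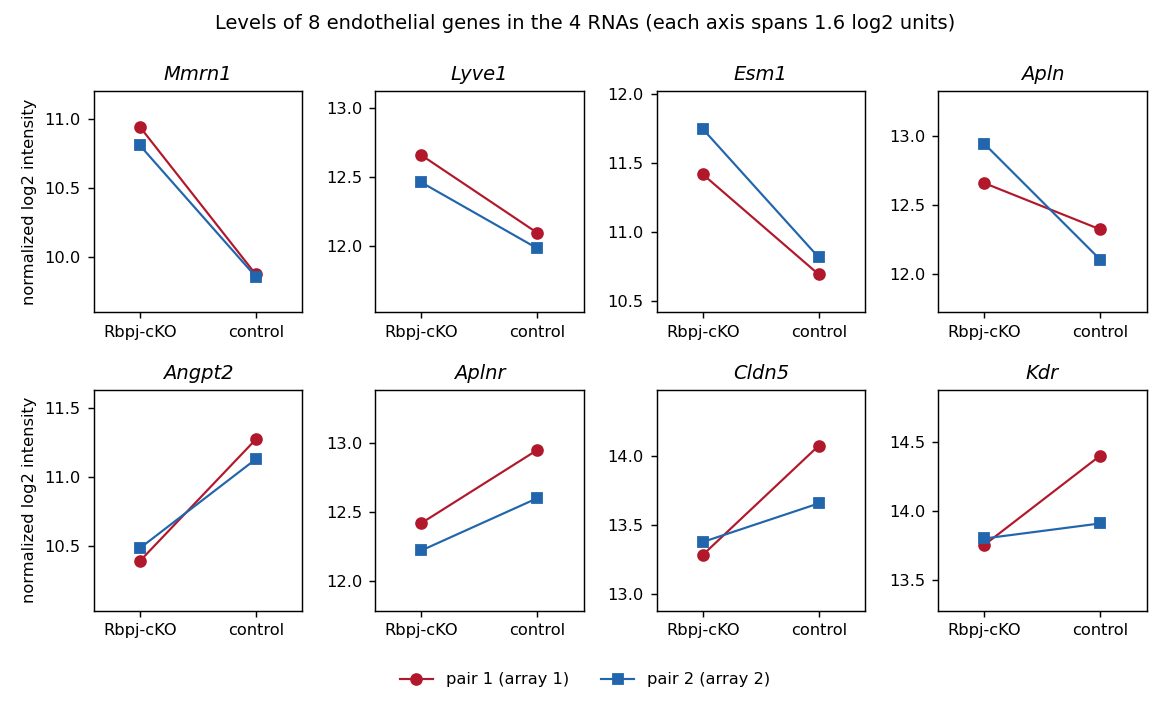
Normalized log2 intensity of 8 endothelial genes in the Rbpj-cKO and control RNAs, with a line joining the RNAs of a pair (red, pair 1 on array 1; blue, pair 2 on array 2). Lines for Mmrn1, Lyve1, Esm1 and Apln descend towards control in both pairs, and those of Angpt2, Aplnr, Cldn5 and Kdr climb towards it, the last by 0.65 in pair 1 and 0.11 in pair 2.

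Among the lymphatic genes, Mmrn1 had the highest mean ratio of the 34 measured genes. Mmrn1 encodes multimerin-1, an extracellular matrix protein of lymphatic endothelium that platelets also store. Its level was 10.94 and 10.81 in the Rbpj-cKO RNAs, against 9.87 and 9.86 in the control RNAs. The control values nearly coincided and the gap to both Rbpj-cKO values was close to 1 log2 unit. The log2 ratios were 1.07 for array 1 and 0.95 for array 2 (mean 1.01 ± 0.08, adjusted p = 0.084 in limma), the 32nd highest of all genes (probe at chr6:60938883-60938942, mm9). A second Mmrn1 probe was not well above background in any of the 4 RNAs.

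Lyve1 encodes a hyaluronan receptor of lymphatic endothelium and of some tissue macrophages. Its level was 12.66 and 12.46 in the Rbpj-cKO RNAs, against 12.10 and 11.98 in the control RNAs. The groups did not overlap, and 22.3% of all genes were likewise higher without overlap. The log2 ratios were 0.56 and 0.48 and averaged 0.52 ± 0.06 (adjusted p = 0.146 in limma), the 232nd highest. Macrophage markers did not move with it in one direction. Of 11 measured, 4 were lower and 1 was higher on both arrays, the medians were -0.03 on array 1 and -0.05 on array 2, and Mrc1, the mannose receptor of resident macrophages, had a mean of 0.02 (-0.02, 0.05).

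Prox1 was dim. Its level was 7.04 and 6.76 in the Rbpj-cKO RNAs, against 6.72 and 6.75 in the control RNAs, so pair 1 differed by 0.32 and pair 2 by 0.01. On average its log2 ratio was 0.17 ± 0.22 (adjusted p = 0.567 in limma), with a 95% confidence interval of -0.11 to 0.44. The mean was between 0.03 and 0.54 under the other settings tried that kept both arrays.

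Flt4, the receptor of VEGF-C, was at the limit of detection. Most of its spots were well above background in 1 of 2 Rbpj-cKO RNAs and 1 of 2 control RNAs, in each case the green channel of the array, and its ratios were -0.09 and 0.16. Pdpn encodes podoplanin, which lymphatic endothelium shares with stroma, mesothelium and podocytes. Its ratios were 0.27 in pair 1 and 0.14 in pair 2 (mean 0.20 ± 0.09, adjusted p = 0.370), and its second probe gave 0.24. In the same RNAs the mesothelium markers had medians of 0.43 and 0.10, and the podocyte and kidney markers 1.06 and 0.42. Their part in the Pdpn value was not tested.

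Set against Cdh5 and Kdr, taken as the blood endothelial genes, Mmrn1 and Lyve1 were higher within each pair. Prox1 was named for this comparison, although it passed the filter through the Rbpj-cKO RNAs alone. Prox1, Lyve1 and Mmrn1 averaged 0.65 in pair 1 and 0.48 in pair 2, and Cdh5 and Kdr averaged -0.56 and -0.05. Lymphatic minus blood thus came to 1.21 in pair 1 and 0.53 in pair 2 (0.87 ± 0.48 on average, SD, n = 2 arrays). Without Prox1, a choice made after its values were seen, it was 1.37 and 0.76. An exact two-sided sign-flip test over 2 arrays cannot give a p under 0.5, and no p is given for this difference. With all 27 blood members in place of Cdh5 and Kdr, and Prox1 kept, it was 0.92 on array 1 and 0.57 on array 2. These 27 include Erg, which passed the filter through the control RNAs alone. The difference without Lyve1 was 1.25 and 0.53. With Pdpn added to the lymphatic side it was 1.11 and 0.44. With no filter on dim probes, which brings in Flt4, it averaged 0.74. The size of the lymphatic side rests largely on Mmrn1 and Lyve1, since Prox1 was near 0 on array 2.

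**Figure D3:**
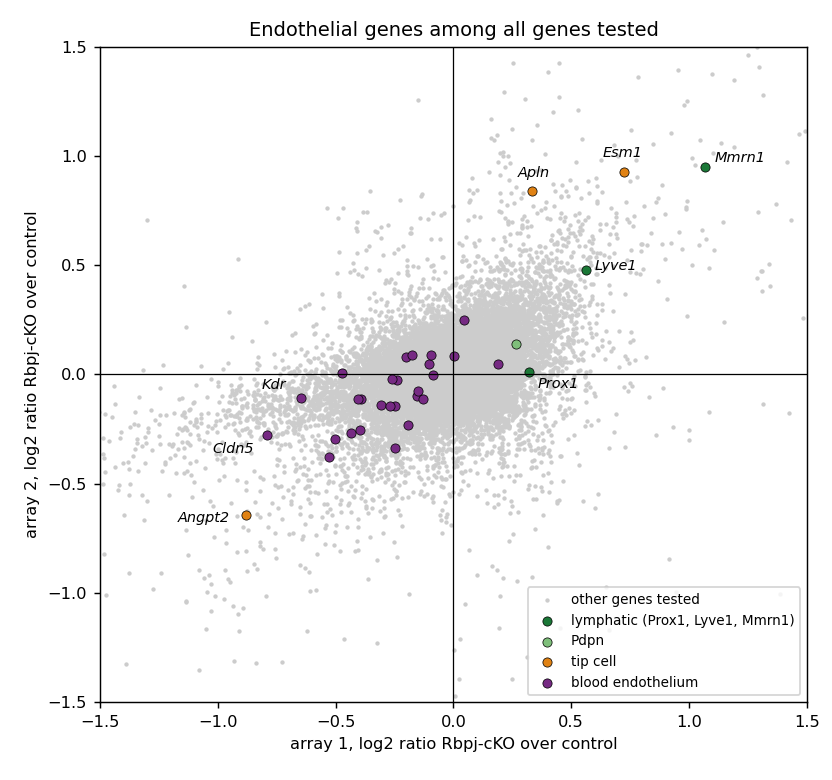
Log2 ratio of Rbpj-cKO over control on array 1 (horizontal) against array 2 (vertical) for all genes tested (grey) and the endothelial genes by class. The axes leave out 171 genes beyond 1.5 on either array. Most blood endothelial genes sit in the lower left near 0, whereas Mmrn1, Lyve1, Esm1 and Apln sit at the upper right edge of the cloud.

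For the 3 highest and the 3 lowest members that have an entry in the promoter table, the 250 bases before the RefSeq start are shown (RefSeq, build GRCm38.p6, strand of the gene). Angpt2 and Aplnr have no entry there. The windows are shown for the motifs they hold. Capitals mark GGAAGT (the core bound by ETS factors such as Erg), AACAAT (SOX factors such as Sox7, Sox17 and Sox18) and TGGGAA (Rbpj), each on either strand. TGGGAA and GGAAGT can overlap by 4 letters. The windows are Mmrn1 at chr6:60944067-60944316 (+), Esm1 at chr13:113209409-113209658 (+), Apln at chrX:48034854-48035103 (-), Cldn5 at chr16:18776597-18776846 (+), Flt1 at chr5:147726012-147726261 (-) and Kdr at chr5:75978456-75978705 (-).
Mmrn1: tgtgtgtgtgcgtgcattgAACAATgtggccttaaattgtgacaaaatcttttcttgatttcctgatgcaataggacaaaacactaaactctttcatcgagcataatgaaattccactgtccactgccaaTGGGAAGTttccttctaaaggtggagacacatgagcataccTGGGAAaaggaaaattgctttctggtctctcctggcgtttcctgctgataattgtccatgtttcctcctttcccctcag
Esm1: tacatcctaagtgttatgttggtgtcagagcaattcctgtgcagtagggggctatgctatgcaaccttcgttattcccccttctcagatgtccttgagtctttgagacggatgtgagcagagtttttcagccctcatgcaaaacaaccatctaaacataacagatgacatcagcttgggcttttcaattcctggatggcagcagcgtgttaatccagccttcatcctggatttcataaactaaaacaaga
Apln: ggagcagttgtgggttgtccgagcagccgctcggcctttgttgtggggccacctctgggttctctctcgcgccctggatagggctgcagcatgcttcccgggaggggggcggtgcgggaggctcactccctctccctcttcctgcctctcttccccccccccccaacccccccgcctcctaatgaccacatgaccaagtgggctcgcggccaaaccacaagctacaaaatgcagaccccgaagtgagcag
Cldn5: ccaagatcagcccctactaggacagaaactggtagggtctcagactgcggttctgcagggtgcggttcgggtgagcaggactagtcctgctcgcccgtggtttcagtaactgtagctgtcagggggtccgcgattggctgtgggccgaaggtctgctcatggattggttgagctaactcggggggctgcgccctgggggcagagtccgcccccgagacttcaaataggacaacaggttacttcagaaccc
Flt1: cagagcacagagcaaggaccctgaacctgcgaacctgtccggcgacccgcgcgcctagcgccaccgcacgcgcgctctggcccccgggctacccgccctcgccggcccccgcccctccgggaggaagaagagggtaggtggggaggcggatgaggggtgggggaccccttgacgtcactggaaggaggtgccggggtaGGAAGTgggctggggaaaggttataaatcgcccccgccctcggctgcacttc
Kdr: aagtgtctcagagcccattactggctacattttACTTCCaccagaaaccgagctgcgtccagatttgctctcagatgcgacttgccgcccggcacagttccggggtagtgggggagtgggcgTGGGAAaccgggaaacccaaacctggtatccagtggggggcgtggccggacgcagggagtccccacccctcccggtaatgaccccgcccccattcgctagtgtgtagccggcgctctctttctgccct

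The Mmrn1 window held 1 GGAAGT, 1 AACAAT and 2 TGGGAA, and one of these TGGGAA overlaps the GGAAGT. Flt1 held 1 GGAAGT, and Kdr held 1 GGAAGT and 1 TGGGAA. The windows of Esm1, Apln and Cldn5 held none of these letters. Of the 35 genes, 20 had an entry, with 26 windows. GGAAGT was in 26.9% of these windows and in 19.7% of all 32851 windows, AACAAT in 15.4% and 9.42%, and TGGGAA in 26.9% and 21.6%. A match is a run of letters and not a bound site. The Mmrn1 window ends in a run of c and t letters followed by cag, as introns do. Whether this or any other window is a promoter was not tested.

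The genes called blood endothelial, which are the pan-endothelial markers, were lower as a group, by small amounts. Of the 26 that passed in both groups, 18 (69.2%) were lower on both arrays, where 29.8% of all genes were, and with Erg the count was 19 of 27. Higher on both arrays were 3 (Robo4, Vwf and Cd34), where 31.8% of all genes were, and 5 had opposite signs, as did 38.5% of all genes. The median log2 ratios of the 26 were -0.24 (array 1) and -0.10 (array 2), against medians of -0.01 and 0.01 over all genes. On array 1 alone 23 of the 26 were lower, where 52.1% of all genes were, and on array 2 alone 18, where 45.9% were. Both Rbpj-cKO levels lay below both control levels for 17 of the 26, as for 20.8% of all genes.

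Of the receptors, the VEGF receptors Flt1 and Kdr were lower on both arrays. Flt1, which binds VEGF-A and can act as a decoy, had levels of 12.53 and 12.62 in the Rbpj-cKO RNAs, against 13.03 and 12.91 in the control RNAs (-0.50 and -0.30, mean log2 ratio -0.40 ± 0.14, adjusted p = 0.222 in limma). Its other 2 probes gave -0.17 and -0.22. Kdr, the main signalling receptor for VEGF-A, had 13.76 and 13.80 in the Rbpj-cKO RNAs, against 14.40 and 13.91 in the control RNAs. Its ratio came mostly from pair 1, with -0.65 there and -0.11 in pair 2 (mean -0.38 ± 0.38, adjusted p = 0.374). The second Kdr probe gave -0.32 on array 1 and -0.26 on array 2.

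The angiopoietin receptor Tek and its relative Tie1 were lower by similar amounts in both pairs, with -0.19 and -0.23 for Tek (mean -0.21 ± 0.03, adjusted p = 0.333 in limma) and -0.25 and -0.15 for Tie1 (mean -0.20 ± 0.07, adjusted p = 0.370). The 4 RNAs did not overlap by group for Tie1, and did for Tek. Ptprb, the phosphatase that restrains Tek, and Eng, a co-receptor for BMP9 and TGF-beta, went opposite ways on the 2 arrays and averaged -0.06 ± 0.20 (-0.20, 0.08) and -0.03 ± 0.11 (-0.10, 0.05). Robo4, a vessel-stabilising receptor, had 0.04 on array 1 and 0.25 on array 2.

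Junction and surface proteins ranged from Cldn5 to values at 0. Cldn5 encodes claudin-5, the tight junction protein of endothelium. It had levels of 13.29 and 13.38 in the Rbpj-cKO RNAs, against 14.08 and 13.66 in the control RNAs. The gap was -0.79 in pair 1 and -0.28 in pair 2 (mean -0.53 ± 0.36, adjusted p = 0.270 in limma). Cdh5, the adherens junction protein VE-cadherin, was lower in pair 1 alone, with 13.93 and 14.03 in the Rbpj-cKO RNAs, against 14.40 and 14.02 in the control RNAs. Pecam1, the adhesion molecule most used to stain endothelium, had -0.18 in pair 1 and 0.09 in pair 2 (mean -0.04 ± 0.19), with a 95% confidence interval of -0.30 to 0.21. The mean ratios of these pan-endothelial markers thus ranged from -0.53 to -0.04, and the genes were not tested against one another.

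Icam2, a leukocyte adhesion molecule, had a mean of -0.22 ± 0.12 (-0.31, -0.14), Esam, a junctional adhesion molecule, -0.13 ± 0.04 (-0.15, -0.10), and Emcn, the sialomucin endomucin, -0.11 ± 0.05 (-0.15, -0.08). Plvap, which forms the diaphragms of fenestrated vessels, and the sialomucin Cd34, which stroma also carries, averaged -0.0050 ± 0.13 (-0.10, 0.09) and 0.04 ± 0.06 (0.0016, 0.09). The probes of Clec14a, an endothelial lectin-like receptor, disagreed in sign, with -0.05 and 0.10, as did those of Plvap, with -0.0050 and 0.05.

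Secreted and signalling proteins were mostly lower. Egfl7, a secreted regulator of vessel tube formation, had 14.44 and 14.35 in the Rbpj-cKO RNAs, against 14.88 and 14.61 in the control RNAs (-0.43 and -0.27, mean log2 ratio -0.35 ± 0.12, adjusted p = 0.239 in limma). Nos3, the endothelial nitric oxide synthase, had 12.02 and 12.11 in the Rbpj-cKO RNAs, against 12.41 and 12.36 in the control RNAs (-0.40 and -0.26, mean -0.33 ± 0.10, adjusted p = 0.249), and its second probe gave -0.30. The groups overlapped for neither gene. Rasip1, a Ras-interacting protein needed for vessel lumens, had -0.21 ± 0.09 (-0.27, -0.15), and Mmrn2, a matrix partner of Clec14a and relative of Mmrn1, had -0.13 ± 0.15 (-0.24, -0.02). Vwf, the clotting factor stored by endothelium and platelets, had 0.12 ± 0.10 (0.19, 0.05), and its second probe -0.0022.

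The 4 transcription factors that passed in both groups, Sox7, Sox17, Sox18 and Tal1, were lower on both arrays. Sox7, Sox17 and Sox18 form the SOXF family of endothelial regulators, and their means were -0.25 ± 0.20 (-0.39, -0.11), -0.12 ± 0.01 (-0.13, -0.11) and -0.26 ± 0.21 (-0.40, -0.11), with adjusted p = 0.372, 0.547 and 0.374 in limma. The second Sox17 probe gave -0.25. Erg, an ETS factor that maintains endothelial identity, was dim, with 6.99 and 6.63 in the Rbpj-cKO RNAs, against 7.24 and 6.96 in the control RNAs. Its ratios were -0.25 and -0.34 (mean -0.29 ± 0.06, adjusted p = 0.261), and between -0.90 and -0.20 under the other settings tried. Tal1, a regulator of blood and endothelial precursors, had -0.26 on array 1 and -0.02 on array 2. Erythroid cells also make Tal1, and 6 of 8 measured erythroid markers were lower on both arrays, with medians of -0.25 and -0.19.

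Amounts differed between the pairs for most blood genes. The ratio was lower on array 1 than on array 2 for 24 of the 27 blood genes and all 3 tip cell genes. Over all genes tested the share was 57.5%, and Erg is not among the 24. Mmrn1 (1.07, 0.95) and Lyve1 (0.56, 0.48) had the higher ratio on array 1. Flt4, which did not pass the filter, had the lower ratio there (-0.09, 0.16). The medians of the adipocyte markers had the same order between pairs as most blood genes. All 13 were lower on both arrays, with medians of -2.75 on array 1 and -1.12 on array 2. Their summed normalized intensity was 149820 and 160400 in the Rbpj-cKO RNAs, against 881590 and 321080 in the control RNAs. Fat tissue is rich in capillaries. The part of fat tissue in the blood endothelial values was not tested.

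**Figure D4:**
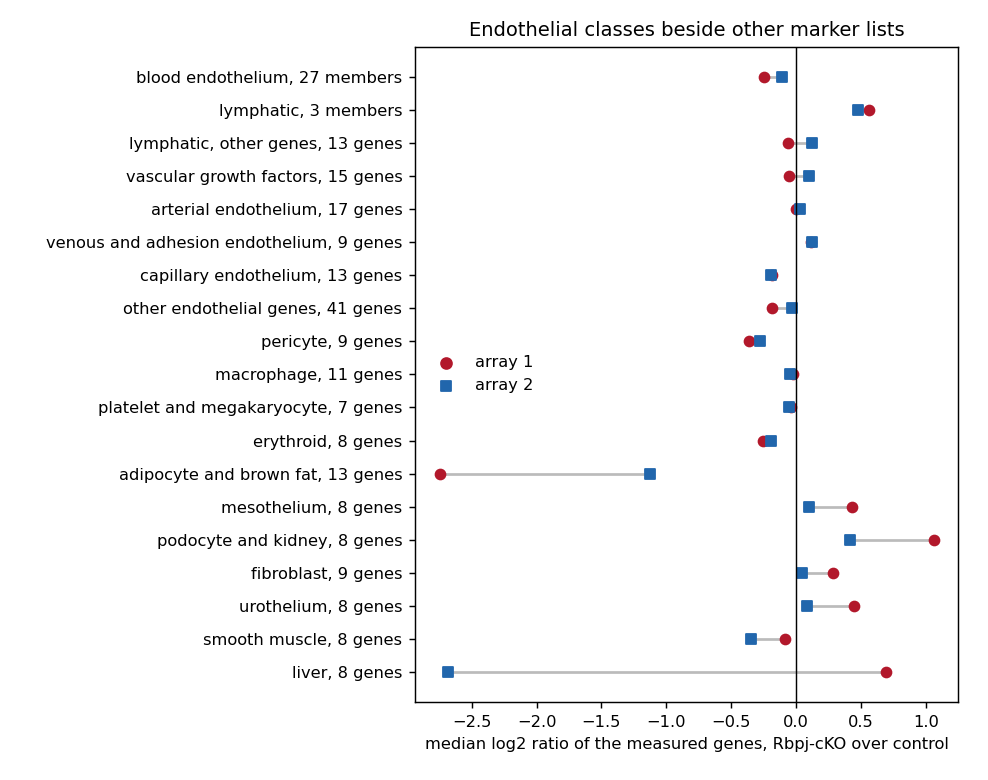
Median log2 ratio of Rbpj-cKO over control for the blood and lymphatic members and for lists of other endothelial genes and other cell types, on array 1 (red circles) and array 2 (blue squares). The adipocyte list has the lowest median on array 1 (-2.75), the liver list the lowest on array 2 (-2.68), and the macrophage and platelet lists lie near 0 on both.

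Of the other endothelial genes outside the 35, limma passed none of those described here at an adjusted p of 0.05 (0 genes). Of 13 capillary genes, 9 were lower and 1 was higher on both arrays, with medians of -0.18 and -0.19. Cd36 and Fabp4, which fat cells also make, had -1.11 ± 0.99 (-1.81, -0.41) and -1.67 ± 1.07 (-2.43, -0.91), and Cav1, the caveolae protein, -0.35 ± 0.03 (-0.33, -0.37). Among 41 further endothelial genes, 22 had both ratios below 0 and 10 had both above it. Edn1, the vasoconstrictor endothelin-1, was high there with 0.88 ± 0.15 (0.77 and 0.98, adjusted p = 0.103), whereas the flow-responsive factor Klf2 had -0.36 ± 0.33 (-0.60, -0.13) and the protein C receptor Procr had -0.41 ± 0.10 (-0.47, -0.34).

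The 17 arterial genes were split, with 5 lower and 5 higher on both arrays. Hey1, a Notch target of arterial endothelium that other cells also use, had 1.00 ± 0.09 (1.07 and 0.94, adjusted p = 0.084) and Hey2 -0.39 ± 0.03 (-0.40, -0.37). Cxcl12, a chemokine of arteries and stroma, had 0.59 ± 0.09 (0.53, 0.66). Of 9 venous and adhesion genes, 3 were lower and 4 higher on both arrays, with Vcam1 at 0.73 ± 0.22 (0.57, 0.89) and Nr2f2, the factor of venous identity, at 0.20 ± 0.11 (0.28, 0.12). Lrg1, a secreted glycoprotein of venules, lay farthest from 0 of the list and was lower, with -1.16 ± 0.67 (-1.63, -0.68).

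As a list, the 13 other lymphatic genes did not share the ratios of Mmrn1 and Lyve1. Of these, 4 were lower and 5 higher on both arrays, with medians of -0.06 on array 1 and 0.12 on array 2. Higher were Cp, with 0.36 ± 0.21 (0.51, 0.21), and Foxc2, a factor for lymphatic valves, with 0.29 ± 0.07 (0.24, 0.35). Lower were Fgl2, with -0.51 ± 0.36 (-0.25, -0.77), and the transcription factor Maf, with -0.22 ± 0.09 (-0.16, -0.29). Itga9, the integrin of lymphatic valves, was also lower, with -0.21 ± 0.0088 (-0.21, -0.22), and was named after its values were seen. Nr2f2 and Nrp2 of this list also stand among the venous and adhesion genes. Which cells of the whole ureter gave the 13 genes their signal was not tested.

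Ligands of the receptors above were measured too. Of 15 vascular growth factors and partners, 5 were lower and 6 higher on both arrays. Angpt1, the stabilising ligand of Tek, had -0.90 on array 1 and -0.05 on array 2. Calcrl, the adrenomedullin receptor, had 0.40 ± 0.12 (0.49, 0.31). Vegfa, the ligand of Kdr and Flt1, had -0.19 ± 0.02 (-0.20, -0.18), and Vegfc, the ligand of Flt4, had 0.10 ± 0.14 (0.20, 0.0023), and both were named after their values were seen.

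Neighbouring cells that share endothelial markers were measured in the same RNAs. Pericytes wrap the capillary wall, and 6 of 9 of their markers were lower on both arrays, with Kcnj8 at -0.70 ± 0.05 (-0.73, -0.66) and Pdgfrb at -0.64 ± 0.11 (-0.72, -0.56), and adjusted p = 0.107 and 0.133 in limma. Their summed intensity was 102240 and 96206 in the Rbpj-cKO RNAs, against 122660 and 117890 in the control RNAs. Platelet and megakaryocyte markers, which bear on Mmrn1 and Vwf, had medians of -0.04 and -0.06, with summed intensities of 15135 and 14070 in the Rbpj-cKO RNAs, against 15129 and 13288 in the control RNAs. Pf4, the platelet chemokine, had 0.05 ± 0.07 (0.0012, 0.10), and the platelet genes Gp1ba and Gp6 were not well above background. Liver markers had medians of 0.70 (array 1) and -2.68 (array 2). Their summed intensity was 12796 and 12017 in the Rbpj-cKO RNAs, against 8904 and 62794 in the control RNAs. The part of liver tissue in the endothelial values of array 2 was not tested.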

How the data were processed

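Total RNA of whole ureters was measured on 2 Agilent 2-colour arrays. The deposited scanner files hold mean and background intensities of each spot in both dyes and, per the file headers, a log10 ratio of red over green, made with Agilent Feature Extraction 10.7.3.1 per the submitters' processing notes. A deposited series table holds scores that read as signed fold changes. They correlated with the ratios at 0.951 on array 1 and 0.923 on array 2, and each column had a median of 1. How the authors scaled and centred them is not stated in the labels.

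From the intensities, background was corrected by normexp (offset 50), dyes were normalized by loess within arrays, each log2 ratio was set as Rbpj-cKO over control, and replicate spots (4 per probe) were averaged. The filter kept a probe where over 50% of its spots were well above background in both Rbpj-cKO RNAs or in both control RNAs. Of 39429 probes, 28328 were named by their accession, the others kept the name in the files, and 28182 passed the filter. Each gene was read from its brightest kept probe, giving 21150 genes. Levels come from Aquantile normalization between arrays. The mean ratio was tested against 0 with limma 3.58.1 in R 4.3.3 (1 residual degree of freedom, 4.35 with the prior), with Benjamini-Hochberg adjustment over all 21150 genes. The code was tested on simulated data, where it called 91% of genes changed 1.5-fold and also 36 unchanged genes. The simulated noise was drawn from the fitted spread of each gene, separately for each array. That 91% is no measure of how many true changes were found in the measured data, where limma called 1 gene. Flagged spots (3.34% and 3.12%) were left out.

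The pairing comes from the labels, since the RNAs of a pair share an array. The alternatives were the background correction, median centring in place of loess, scaling between arrays, the filter, the probe choice, the scanner's ratio, the series table, limma's trend and robust settings, a fit without the pairing and each array left out. The members and lists were chosen with earlier results of these data known. Any of the 35 members could be named, and outside them up to 4 genes per list with the largest mean ratio of 1 sign on both arrays, and defining markers.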

Additional observations from a re-analysis of the deposited data

Results flagged for a closer look

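The ratios of 5 blood endothelial genes had opposite signs in the pair labelled female (array 1) and the pair labelled male (array 2), with 1 pair each, so the difference was not tested. The log2 ratio of Rbpj-cKO over control was -0.10 on array 1 and 0.0480 on array 2 for Eng, and -0.20 and 0.0782 for Ptprb. For Pecam1 it was -0.18 on array 1 and 0.0871 on array 2, and for Plvap -0.10 and 0.0871. Cdh5 had -0.47 on array 1 and 0.0078 on array 2. Opposite signs were found for 38.5% of all genes.

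Y-linked genes, which enter no comparison of endothelial genes, gave a signal on array 1, where both RNAs are labelled female. There Ddx3y and Eif2s3y were higher in the library labelled Rbpj-cKO by 4.23 and 4.26 on the log2 scale. Xist was high in both RNAs of that array, at 12.96 in the library labelled Rbpj-cKO and 12.82 in its control, against 6.41 and 6.43 on array 2.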

How the results depend on the processing

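Under the alternatives that kept both arrays, 365 of 372 mean ratios of endothelial genes kept their sign and their side of the adjusted threshold. Plvap turned sign with the scanner's ratio (0.0118), the series table (0.0307) and the mean of all probes (0.0240), and Clec14a with the series table (0.0022) and the mean of all probes (0.0280). The other 2, Mmrn1 and Esm1, passed with limma's trend and robust settings, where 2 endothelial genes and 95 of all genes were called. All genes called numbered 1 in the analysis reported and 0 with median centring, scaling between arrays, the scanner's ratio or the series table. Without the replicate block, that is, with the pairing dropped, limma called 0 genes and 0 endothelial genes. With 1 array left there is no test. Leaving out each array in turn, at least 1.5-fold lower endothelial genes numbered 1 to 3 (3 without replicate 2), at least 1.5-fold higher ones 2 to 3, and those lower on the array that was left 20 to 25. The median ratio was then -0.20 to -0.05, and lymphatic minus blood 0.53 to 1.21. Leaving out Prox1, an alternative chosen after seeing the data, gave 1.07 on average in place of 0.87. Adding Pdpn gave 0.78, and dropping the filter on dim probes, which brought in Flt4, gave 0.74. Prox1, Erg and Flt4 were near background.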
